A study of Drosophila melanogaster with 2 samples.

Results

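The cytosolic ribosomal protein genes of Drosophila melanogaster are described here by the peaks that lay at their transcription starts in a ChIP-seq experiment on the proneural factor Atonal. They were chosen by name: protein-coding genes of the dm6 annotation whose symbol is RpL or RpS followed by a number and optional letters, together with RpLP0, RpLP1 and RpLP2. The rule gave 85 genes of 13986 protein-coding genes, 48 of the large subunit and 37 of the small subunit. A gene was counted as having a peak where the summit of a peak, its highest point, lay within 500 bp of any of its annotated starts. The rule uses symbols only and no measured value, although the family was picked with earlier results of these data known.

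Whole embryos aged 0 to 18 h carried a transgene encoding Atonal fused to enhanced GFP, and chromatin sonicated to fragments of 200 to 800 bp was precipitated with an antibody against GFP. There was 1 group, ato-GFP embryos, with 2 biological replicates. Whole embryos of mixed age were used, so a peak cannot be assigned to a cell type. A control was not analysed here, and sequencing depth is unknown because the files give peaks and not reads.

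Ribosomal proteins are made in near-equal amounts and at very high levels in every growing cell, and many of their genes in the fly are known as Minutes, since loss of 1 copy slows development and shortens bristles. Their promoters in flies often start transcription inside a run of pyrimidines, the TCT initiator, in place of the usual initiator. A second promoter element of fly housekeeping genes is the DNA replication-related element (DRE), TATCGATA, which the factor DREF binds. Atonal is a basic helix-loop-helix protein, a class that binds E-boxes, CANNTG, with a partner encoded by da, and it is known for specifying chordotonal organs and founder photoreceptors.

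Each peak carries a signal whose scale the authors do not state, so levels are compared within 1 list only, and the values of the 2 replicates are given side by side with no ratio between them. The conservative list, which sets the replicates against each other by the irreproducible discovery rate (IDR), held 3009 peaks. The ranked list behind it held 161563 rows, most of them weak. The list from the pooled-replicate comparison held 3357 peaks, and the lists of replicate 1 and replicate 2 alone held 2501 and 1737.

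Promoters of some strongly and some weakly marked genes are shown first, to let the promoter words be seen that are counted over all members below. Each line holds 80 bases before and 20 bases from the start nearest to the summit (for genes without a conservative peak, the start of the canonical transcript), in the direction of transcription, on dm6 (RefSeq sequence). Capitals mark the DRE core ATCGAT, any E-box, the word CAATCG of some fly promoters, and the TCT initiator, which is CTTT with a pair of pyrimidines on either side, on the sense strand and with its C within 5 bp of the start. The first 6 are strongly marked genes, and the last 3 are genes with a ranked row but no conservative peak and very low signals.
RpL32 (chr3R:30046142-30046241, minus strand): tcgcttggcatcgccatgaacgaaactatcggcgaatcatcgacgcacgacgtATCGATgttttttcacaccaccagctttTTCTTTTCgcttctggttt
RpS2 (chr2L:9897533-9897632, minus strand): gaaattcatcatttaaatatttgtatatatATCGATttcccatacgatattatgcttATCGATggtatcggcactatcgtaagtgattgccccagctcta
RpS7 (chr3R:30209001-30209100, minus strand): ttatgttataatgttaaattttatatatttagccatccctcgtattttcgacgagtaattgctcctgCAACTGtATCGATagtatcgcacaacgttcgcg
RpS30 (chr3R:20850436-20850535, plus strand): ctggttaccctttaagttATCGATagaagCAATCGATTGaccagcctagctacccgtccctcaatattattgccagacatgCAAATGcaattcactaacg
RpL36A (chr2L:8042890-8042989, minus strand): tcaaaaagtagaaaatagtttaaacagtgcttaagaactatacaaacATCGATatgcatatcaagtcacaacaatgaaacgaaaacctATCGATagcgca
RpS29 (chr3R:9777962-9778061, plus strand): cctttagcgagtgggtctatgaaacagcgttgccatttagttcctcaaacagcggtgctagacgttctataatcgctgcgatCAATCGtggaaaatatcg
RpL35A (chr3R:5467082-5467181, minus strand): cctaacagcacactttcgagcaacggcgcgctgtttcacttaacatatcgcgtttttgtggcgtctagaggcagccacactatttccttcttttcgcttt
RpS10a (chr3R:27652680-27652779, plus strand): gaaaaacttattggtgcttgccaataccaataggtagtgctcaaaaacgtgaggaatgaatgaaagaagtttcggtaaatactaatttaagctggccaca
RpL10Aa (chr3R:15037286-15037385, plus strand): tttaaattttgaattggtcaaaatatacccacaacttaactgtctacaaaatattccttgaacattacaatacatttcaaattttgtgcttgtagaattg
RpL32, RpS2, RpS7, RpS30 and RpL36A all held at least 1 copy of ATCGAT in the printed bases, and RpS2, RpS30 and RpL36A held a pair. In RpS30 a copy lies inside CAATCGATTG, where ATCGAT and CAATCG overlap. RpS29 held none there, but the 101 bp around its summit held a TATCGATA that runs across the printed end. RpL35A, RpS10a and RpL10Aa held none of the marked words. RpL35A does hold the bases of the TCT initiator downstream of its start, but beyond the 5 bp allowed, so they are not marked. These 9 are not the whole contrast: RpL11, RpL41 and RpL7, among the 10 strongest genes, had no ATCGAT in the promoter, and RpS15Ab, whose ranked signal of 15.4 was the lowest of the members, had TATCGATA.

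Peaks of the conservative list marked 36 of the 85 ribosomal protein genes, or 42.4% (95% Wilson interval 32.4 to 53.0%), beside 21.7% of all protein-coding genes. All Wilson intervals here cover counting error only. The small subunit had 18 of 37 genes with a peak (48.6%, 33.4 to 64.1%) and the large subunit 18 of 48 (37.5%, 25.2 to 51.6%), intervals that overlap. The genes with a peak were spread over the genome: 7 of 13 on X, 9 of 18 on 2R, 6 of 14 on 3L, 9 of 22 on 3R and 5 of 17 on 2L, and the single gene on chromosome 4 had none. Of the 36, 11 had the start of another protein-coding gene within 500 bp of the summit. Among all 3034 protein-coding genes with a peak, 1522 had only peaks with such a neighbour. Counting only summits with no such neighbour, 25 ribosomal protein genes (29.4%) had a peak, beside 10.8% of all protein-coding genes.

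The other lists gave shares of the same order. The pooled list marked 43 members (50.6%, beside 23.0% of all protein-coding genes), the list of replicate 1 marked 34 (40.0%, beside 18.4%) and that of replicate 2 marked 33 (38.8%, beside 14.0%). Lists of both replicates marked 27 members (31.8%, beside 11.8%). Any row of the ranked list, however weak, was found at 77 members, and 89.5% of all protein-coding genes had one as well, so its presence is no mark of these genes. Among the genes that the pooled list added were RpL24, RpS4, RpS14a, RpS9, RpL34b, RpLP1 and RpL14.

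**Figure D1:**
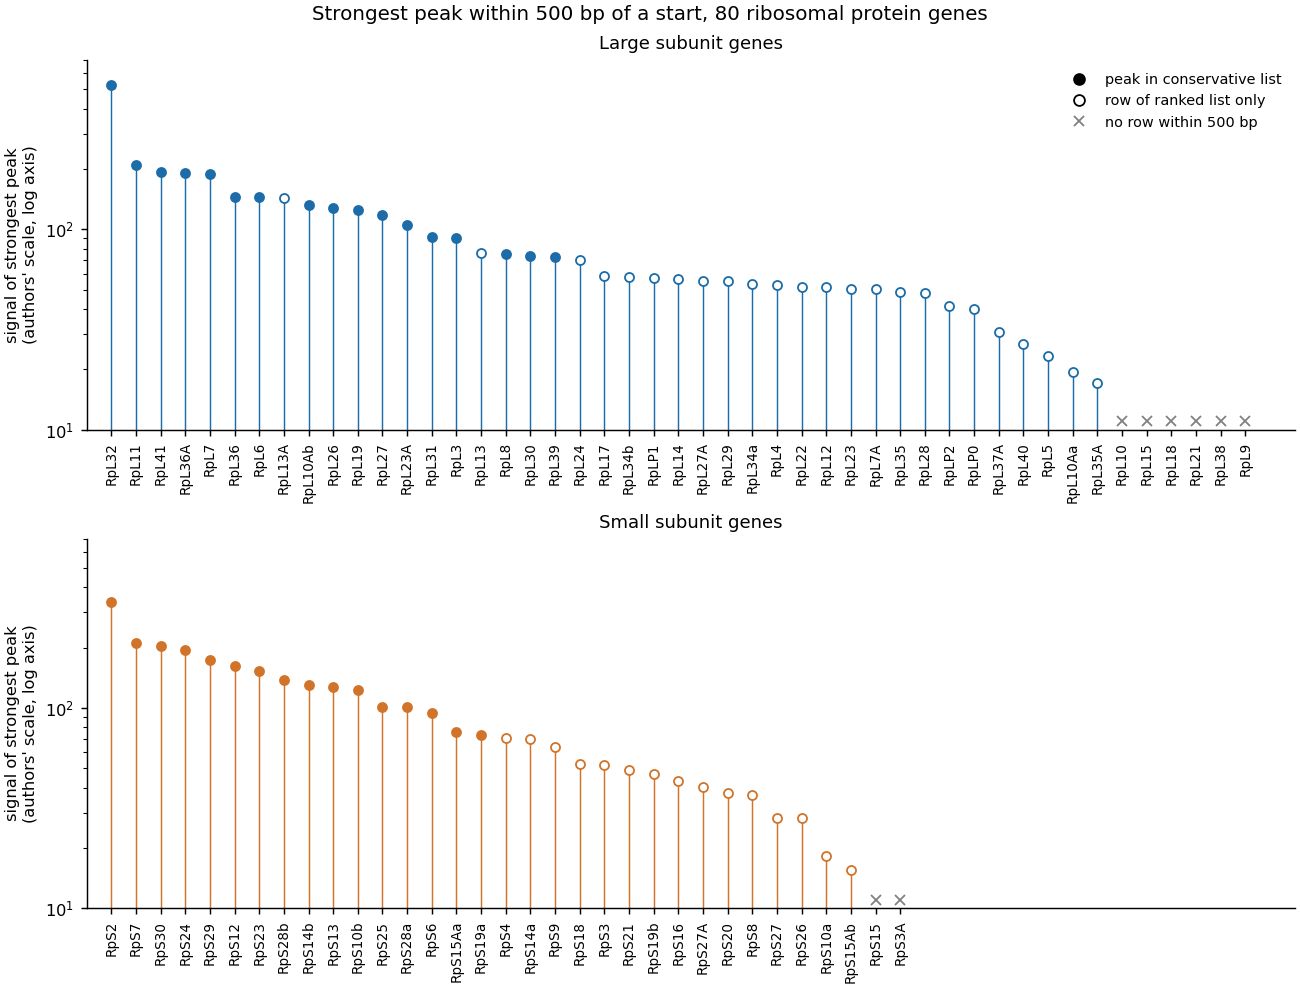
Signal of the strongest peak within 500 bp of a start (vertical axis, authors' scale, logarithmic) for the ribosomal protein genes reported by name, large subunit above and small subunit below, in falling order. Filled points are genes with a conservative peak (72.4 to 526.7), open points genes with a row of the ranked list only, and crosses, placed at the foot of the axis, the 8 genes with no row.

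RpL32, a large subunit gene widely used as a reference transcript, carried the strongest of these peaks, the fourth of the whole conservative list. Its signal was 526.7, with 238.0 in replicate 1 and 275.4 in replicate 2 in the lists of the single replicates. The peak covers chr3R:30046089-30046401 (dm6), with its summit at 30046227, at -66 bp from the start (negative is upstream) and outside any annotated gene, and the start of CG7943 lies 243 bp from the summit. RpS2, which encodes a protein of the small subunit, had the next peak, with a signal of 338.9, and 188.6 in replicate 1 and 154.8 in replicate 2. It covers chr2L:9897473-9897661 with the summit at -17 bp, and no other coding start lies within 500 bp. The other members named here lay well below these genes.

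RpS7 had a signal of 211.3, with 91.6 in replicate 1 and 129.6 in replicate 2. RpL11, whose protein joins 5S ribosomal RNA together with that of RpL5, had 208.6, with 106.9 in replicate 1 and 91.5 in replicate 2. RpS30, made as a fusion with a ubiquitin-like protein, had 202.4, with 112.8 in replicate 1 and 106.2 in replicate 2. Each of these genes was in the thresholded list of both replicates. RpL41, which encodes the smallest ribosomal protein, RpS24, RpL36A and RpL7 were also among the 10 strongest, with signals of 194.2, 193.5, 191.1 and 188.0. RpL41 was in the thresholded list of replicate 2 (84.99) but not in that of replicate 1, where its ranked row had 99.8.

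Over the 36 genes the median signal was 129.2 (quartiles 93.6 and 188.8), beside 100.5 over the strongest peaks of all 3034 protein-coding genes with one, and a median of 88.6 over all peaks of the list. Of the 36, 6 lay in the top 10% of the list by signal, 16 in the top 25% and 2 in the bottom 25%. By subunit the medians were 129.7 for the 18 large subunit genes with a peak and 129.0 for the 18 small subunit genes with one. Over all genes with a ranked row they were 64.4 for the large subunit and 70.4 for the small. Among the weakest peaks were those of RpL39 (72.4), RpS19a (72.8) and RpL30 (73.5).

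Genes of single functional parts of the ribosome are given next. None of the genes of the stalk, which recruits elongation factors, had a conservative peak, beside 42.4% of all members and 21.7% of all protein-coding genes. Ranked signals were 40.1 for RpLP0, 57.4 for RpLP1, 41.4 for RpLP2 and 51.4 for RpL12, which encodes a protein at the stalk base. RpLP1 was in the pooled list. The row of RpLP2 lay 189 bp downstream of the start, in a coding exon, and that of RpL12 at -483 bp. Of the 5S RNA partners, RpL11 was among the strongest, while RpL5 reached only 23.4 in the ranked list. RpL40 and RpS27A, both made as ubiquitin fusions, reached 26.6 and 40.1 in the ranked list, without a conservative peak. The row of RpL40 lay 470 bp downstream of the start, in a coding exon. That of RpS27A lay 226 bp downstream, and equally far from the start of Ip259. RpL3, whose protein reaches the peptidyl transferase centre, had a conservative peak of 90.9, and RpS6, whose protein is the substrate of S6 kinase, 1 of 94.2. RpL10, whose protein is needed for the subunits to join, had no row in the ranked list within 500 bp, and neither had RpL9, RpL15, RpL18, RpL21, RpL38, RpS15 and RpS3A. These genes of single functions were picked for their known roles after their values were seen.

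Summits lay at the starts. The median position was -18 bp, with quartiles of -43.25 and 13 bp, where negative values are upstream. Of the 36 summits, 25 were within 50 bp and 30 within 100 bp of a start (83.3%), beside 70.4% of the 2998 other protein-coding genes with a peak, whose median was -38 bp with quartiles of -101 and -4 bp. Measured from canonical starts alone the medians were close, -37.5 bp for the members and -39 bp for the other genes, with 80.6% and 66.3% of summits within 100 bp. Upstream summits numbered 22, downstream ones 12, and 2 (RpL27 and RpS29) were on the start itself. By annotation 21 summits were intergenic, 12 in a 5′ UTR and 3 in an intron, and none was in a coding exon.

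**Figure D2:**
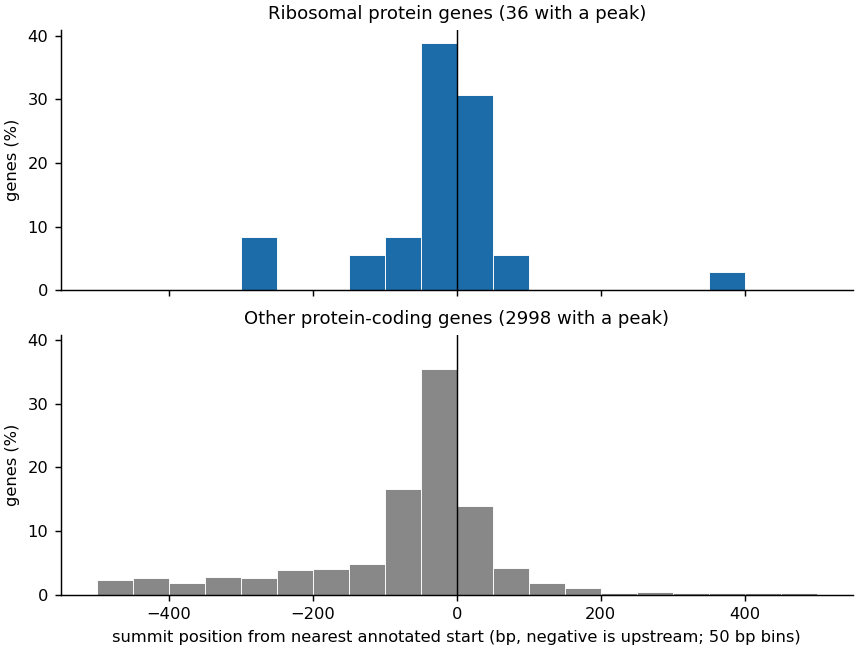
Share of genes (vertical axis, %) by the position of the summit of the strongest conservative peak from the nearest start (horizontal axis, bp, 50 bp bins, negative upstream), for 36 ribosomal protein genes above and 2998 other protein-coding genes below. Both peak at the start, and 14 of the 36 members fall in the bin from -50 to 0 and 11 in the bin from 0 to 50 bp.

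RpL6, RpS10b, RpL23A, RpS25 and RpS28a had summits more than 100 bp away. The summit assigned to RpS28a lies 355 bp downstream of its start and 72 bp from the start of Mgat2. At 34 of the 36 genes no other protein-coding start was nearer to the summit. A second conservative peak lay within 500 bp of a start of RpL11, RpL7, RpS14b, RpS19a and RpS28a. In RpS19a both had like signals, 72.8 at -42 bp and 69.3 at -468 bp, and elsewhere the second peak was weak, with 13.0 at RpL11, 4.75 at RpL7, 4.78 at RpS14b and 5.44 at RpS28a.

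The genes split by the DRE core in the promoter. Taking 80 bp before to 20 bp after the canonical start, ATCGAT was present in 20 of the 36 ribosomal protein genes with a peak (55.6%, 39.6 to 70.5%) and in 5 of the 49 without (10.2%, 4.44 to 21.8%). All protein-coding promoters of this length held it in 14.9% of cases, and those of the other genes with a peak in 39.8%. The whole 8-base TATCGATA was present in 14 of 36 with a peak (38.9%) and 4 of 49 without (8.16%), beside 6.50% of all protein-coding promoters. ATCGAT and TATCGATA were searched on both strands, and each copy of the longer word contains the shorter. Read the other way, 20 of 25 members with ATCGAT had a peak (80%, 60.9 to 91.1%), against 16 of 60 without it (26.7%, 17.1 to 39.0%). In the list of replicate 1 the shares were 76.0% with and 25% without, and in that of replicate 2 68.0% with and 26.7% without. The same split in the other protein-coding genes gave 58.0% with the word (1193 of 2056) and 15.3% without (1805 of 11827). Among the members, 5 with ATCGAT lacked a conservative peak: RpL34a, RpLP0, RpS14a, RpS15Ab and RpS16. Counting only summits with no other coding start within 500 bp, the share with a peak was 52.0% with ATCGAT and 20% without. The split by this word was chosen after its counts were seen, and genes are not replicates, so the values are given without a test.

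Ranked signals are the same values as the conservative ones at genes with a conservative peak, so they largely repeat this split and are no separate result. Members with ATCGAT had a median of 125.0 over 25 genes, from 15.4 at RpS15Ab to 526.7 at RpL32. Members without it had a median of 55.9 over the 52 with a ranked row, from 17.1 at RpL35A to 208.6 at RpL11. The ranges overlap. RpL11, RpL41 and RpL7 were among the 10 strongest without ATCGAT in the promoter, the other 7 holding it, and 4 of the 10 weakest peaks also had it.

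Shares by the TCT initiator had overlapping intervals. It was present at a start of 44 of the 85 members (51.8%), beside 0.931% of all protein-coding genes. The share depends on the distance allowed: within 2 bp of a start it was 15.3%, beside 0.329%, and within 10 bp 78.8%, beside 1.74%. Of members with a TCT start, 16 of 44 had a peak (36.4%, 23.8 to 51.1%), against 20 of 41 without (48.8%, 34.3 to 63.5%). Within 2 bp the shares with a peak were 38.5% with TCT and 43.1% without, within 10 bp 41.8% with and 44.4% without, and at canonical starts 35.5% with and 46.3% without. Crossing the words, a peak was found at 11 of 14 members with ATCGAT and TCT, 9 of 11 with ATCGAT only, 5 of 30 with TCT only and 11 of 30 with neither. For this cross ATCGAT was taken at the canonical start and TCT at any annotated start, so a gene with both need not hold them in the same promoter. RpS7 and RpS30, for example, count as having both, although no TCT is marked at their printed starts. The other protein-coding genes had 8 of 19, 1185 of 2037, 17 of 67 and 1788 of 11760 in the same order. Members with TCT only were thus marked in 16.7% of cases (7.34 to 33.6%), and the interval includes the share over all protein-coding genes.

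**Figure D3:**
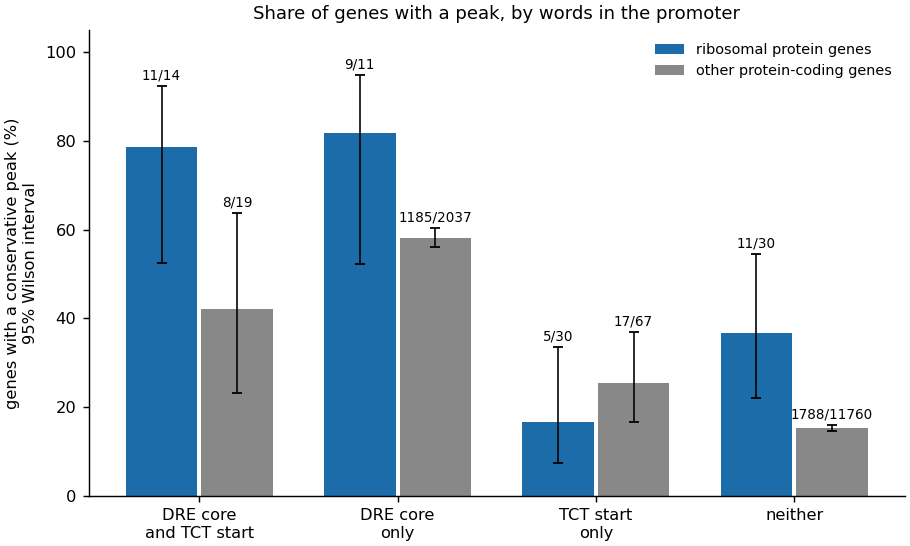
Share of genes with a conservative peak (bars, %, with 95% Wilson intervals and counts above) for genes with the DRE core ATCGAT and a TCT start, the DRE core only, a TCT start only, or neither, in ribosomal protein genes (blue, left) and other protein-coding genes (grey, right). The DRE core was taken at the canonical start and TCT at any annotated start. Among ribosomal protein genes both classes with the DRE core stand higher, at 78.6% and 81.8%, than those without, at 16.7% and 36.7%.

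At the summits themselves, the 101 bp windows of the 36 genes held ATCGAT in 17 (47.2%, 32.0 to 63.0%), beside 48.3% at the summits of the other protein-coding genes with a peak. In flanking windows, placed 500 bp upstream of each summit and equally wide, it was present in 0 of 36, which allows a share of up to 9.64% by the upper bound of the Wilson interval, and 500 bp downstream in 2 of 36. The centre of the nearest copy lay a median of 14.5 bp from the summit, from 3.5 to 42.5 bp. At RpS2 and RpS12 it was 3.5 bp away, and at RpL32 41.5 bp. The median signal was 145.5 for windows with the word and 105.2 for the 19 without.

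The E-box CANNTG, the word that Atonal and its partner are known to bind, was present in 9 of the 36 summit windows (25%, 13.8 to 41.1%), beside 37.4% at the other protein-coding genes with a peak. Windows 500 bp upstream and downstream of the members' summits each held it in 16 of 36 (44.4%, 29.5 to 60.4%), so CANNTG was not more frequent at the summit than beside it. The same held at the other protein-coding genes with a peak, with 37.7% upstream and 43.0% downstream, so this is not particular to the members. The single E-box word CAGCTG was present in 3 of 36 summit windows (8.33%, 2.87 to 21.8%), beside 1 of 36 upstream and 2 of 36 downstream. At the other protein-coding genes with a peak it was present in 10.7% of summit windows, beside 5.40% upstream and 6.40% downstream. The genes with an E-box were RpL11, RpL39, RpL7, RpS14b, RpS24, RpS28a, RpS30, RpS6 and RpS7. The words were CAAATG and CAGCTG at 3 sites each, and CAACTG and CACGTG at 2 each. The copy nearest to a summit was CAAATG of RpS30, printed above, which begins 5 bp before the summit.

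Each of the other promoter words searched was found at few of the members' summits. GGTCACAC, the core of the housekeeping word called motif 1, was present in 4 of 36 windows (11.1%), beside 6.20% at the other genes. CAATCG was present in 4 of 36 (11.1%), beside 18.7%. The TATA word TATAAA was present in 5 of 36 (13.9%), beside 7.97%, and GAGAG, the word of GAGA factor, in 1 of 36 (2.78%), beside 10.5%. These shares rest on few windows and moved with the choices. GGTCACAC was present in 6.06% without replicate 1, 8.82% without replicate 2 and 2.78% with 25 bp each side of the summit. TATAAA was present in 9.09% without replicate 1, 17.6% without replicate 2 and 2.78% with 25 bp each side, and GAGAG in none of the windows with either replicate left out. All were searched on both strands, and a match is a description of the sequence.

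The replicates could be compared gene by gene from their own ranked lists. Across 75 members with a row in both, the log2 signals had a Pearson r of 0.775 and a Spearman rho of 0.775, beside 0.772 and 0.741 across 10669 other protein-coding genes. The 36 genes with a conservative peak had r = 0.834 and rho = 0.801, and the 39 without had r = 0.208 and rho = 0.131. The IDR selects peaks of like rank, which favours a high value among those that passed. These are values across genes that share the same libraries, not across samples.

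**Figure D4:**
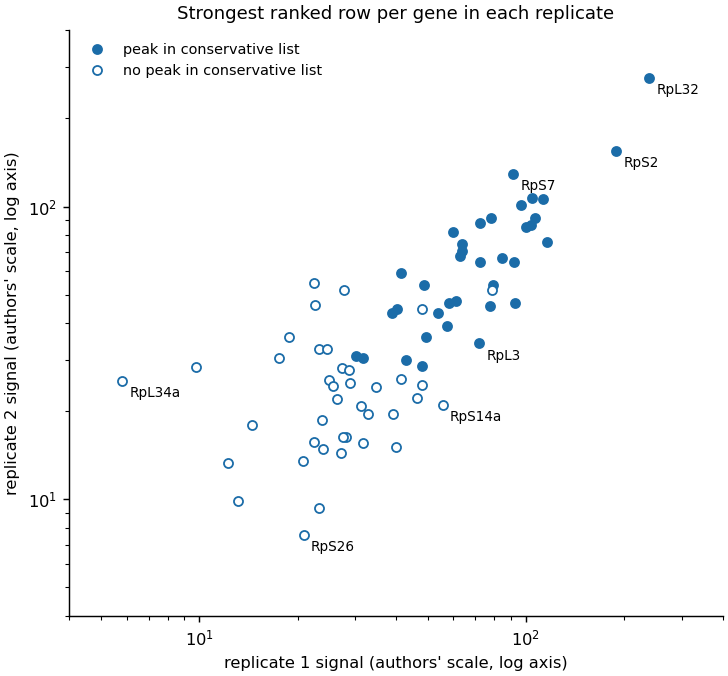
Signal of the strongest ranked row within 500 bp of a start in replicate 1 (horizontal) and replicate 2 (vertical), authors' scale, logarithmic axes, for 75 ribosomal protein genes with a row in both. Filled points have a conservative peak and reach RpL32 at 238.0 in replicate 1 and 275.4 in replicate 2, while open points have none and lie mostly at lower values on both axes.

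Of the 36 genes, 26 had a peak in the thresholded lists of both replicates. RpL19, RpS28a, RpS15Aa and RpL30 had it only in that of replicate 1, and RpL41, RpS10b and RpL8 only in that of replicate 2. RpS19a was among the 3 genes that had it in neither, with signals of 40.3 in replicate 1 and 44.5 in replicate 2.

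Of the 49 genes without a conservative peak, 41 had a ranked row (83.7%), beside 9445 of 10903 other protein-coding genes without a peak (86.6%). The median signal of those rows was 50.5 for the members (15.4 to 143.9) and 28.8 for the other genes. Among the 8 members with no row, RpL10, RpL38, RpS15 and RpS3A had none in the ranked list of either replicate. RpL13A had the highest IDR score, a −log10 of 3.55, at chr3R:5624019-5624354 with a signal of 143.9. It was past an IDR of 0.01 in the ranked list yet not in the conservative list, and starts of Dph4 and Spec2 lie within 500 bp of its summit. That summit is at -287 bp from the start of RpL13A, and the nearest start of another coding gene is only 62 bp away. RpS4 (70.4), RpL34b (58.1), RpL22 (51.7) and RpS20 (37.5) came next, with −log10 values of 1.97, 1.93, 1.93 and 1.91, just short of the threshold of 0.01. The row of RpS20 lies nearer to the start of CG17271, at 137 bp, than to its own. RpL28 was in the thresholded list of each replicate but at different places, at -12 bp from a start in replicate 1 and at -386 bp in replicate 2.

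Some ribosomal proteins are encoded by paired copies, of which 1 is often used mainly in the germline. There were 8 such pairs among the members. Both copies of RpS28 had a conservative peak (100.6 for RpS28a and 137.3 for RpS28b), and neither copy of RpL34 had one. The summit assigned to RpS28a, 355 bp downstream of its start, is nearer to the start of Mgat2, 72 bp away. In the ranked list RpL34b had 58.1, at -49 bp. RpL34a had 53.6, in a row at -157 bp whose summit is nearer to the start of Trmt61, 72 bp away. In 5 pairs 1 copy had a conservative peak, where 42.4% of all members had one, and a difference between copies was not tested. RpL10Ab had 131.6, while RpL10Aa reached 19.3 in the ranked list. RpS10b had 123.3, while RpS10a reached 18.3. RpS14b had 130.7, while RpS14a reached 69.7 in a row whose summit, at -413 bp, lies 3 bp from the start of Dhdds. RpS15Aa had 75.7, while RpS15Ab reached 15.4. RpS19a had 72.8, while RpS19b reached 46.6. The rows of RpL10Aa, RpS15Ab and RpS19b had summits in coding exons, 445, 246 and 315 bp downstream of the start. That of RpS10a was at -334 bp, in an intron, so these are not values at the starts. The copies of RpS14 are 97.8% identical in coding sequence and their starts lie 1156 bp apart on X, and those of RpS15A are 98.2% identical, so reads inside them may be split between copies. Their promoters were 44.0% and 42.0% identical over the 100 bp windows, within the 34.0 to 49.0% of all 8 pairs. The copies of RpL10A, RpL34, RpS10, RpS19 and RpS28 were 65.4 to 76.9% identical in coding sequence.

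Small nucleolar RNAs, which guide the modification of ribosomal RNA, lie in introns of many ribosomal protein genes. Of the members 28 hosted at least 1, beside 0.601% of all protein-coding genes. A conservative peak was found at 11 of these 28 (39.3%, 23.6 to 57.6%), against 25 of the 57 members that host none (43.9%, 31.8 to 56.7%), intervals that overlap. Among hosts outside the family the share was 60.7% (34 of 56), beside 21.7% of all protein-coding genes. RpS7, among the most strongly marked, hosted 7.

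Other genes of protein synthesis and turnover, on lists chosen by symbol, were marked at shares close to that of the ribosomal protein genes in the conservative list. Conservative peaks were found at 29 of 73 mitochondrial ribosomal protein genes (39.7%), 19 of 44 translation initiation factor genes (43.2%), 7 of 14 elongation and release factor genes (50%) and 19 of 48 proteasome subunit genes (39.6%). The shares depend on what the symbols take in. The proteasome list holds many copies with R or T added to the symbol, such as Prosalpha4T1 and Rpt3R, none with a conservative peak. They lower its share, and without them the proteasome share would lie above 39.6%. The elongation and release factor list includes mitochondrial factors, with symbols starting mEF. In other lists of peaks the shares lay further apart. The pooled list gave 50.6% for the cytosolic ribosomal protein genes, 42.5% for the mitochondrial ones, 38.6% for initiation factors, 57.1% for elongation and release factors and 37.5% for the proteasome. The list of replicate 1 gave 40.0%, 30.1%, 38.6%, 42.9% and 33.3% in the same order, and that of replicate 2 gave 38.8%, 26.0%, 36.4%, 35.7% and 27.1%. A peak in the lists of both replicates was found at 31.8%, 21.9%, 34.1%, 28.6% and 20.8%. With no other coding start within 500 bp of the summit, the shares were 29.4% for the cytosolic ribosomal protein genes (20.8 to 39.8%), 11.0% for the mitochondrial ones (5.66 to 20.2%), 22.7% for initiation factors (12.8 to 37.0%), 35.7% for elongation and release factors (16.3 to 61.2%) and 14.6% for the proteasome (7.25 to 27.2%). Every gene stays in its list here, so a gene whose only peak has a neighbouring start counts as unmarked. Gene spacing therefore enters these shares. The intervals of the cytosolic and mitochondrial sets lay close, from 20.8% and up to 20.2%, and no test was run. Median signals of the strongest conservative peak were 129.2 for the cytosolic set, 95.8 for the mitochondrial set, 104.9 for initiation factors, 139.0 for elongation and release factors and 108.1 for the proteasome.

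Of the 7 listed ribosomal protein genes and paralogs whose symbols fall outside the rule, 3 had a conservative peak, and none of the 7 had one with no other coding start within 500 bp of the summit. Rack1, which encodes a scaffold on the small subunit, had a conservative peak of 70.2, sta, a small subunit gene, 1 of 64.3, and RpLP0-like 1 of 235.2. The others had only ranked rows, with signals of 67.3 for RpL7-like, 36.2 for RpL24-like, 29.6 for RpS28-like and 24.7 for RpL22-like. RpL37-1 and RpL37-2, left out by the hyphen in their symbols, were looked up in addition: RpL37-1 had a conservative peak of 89.1, while RpL37-2 reached 13.1 in the ranked list.

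**Figure D5:**
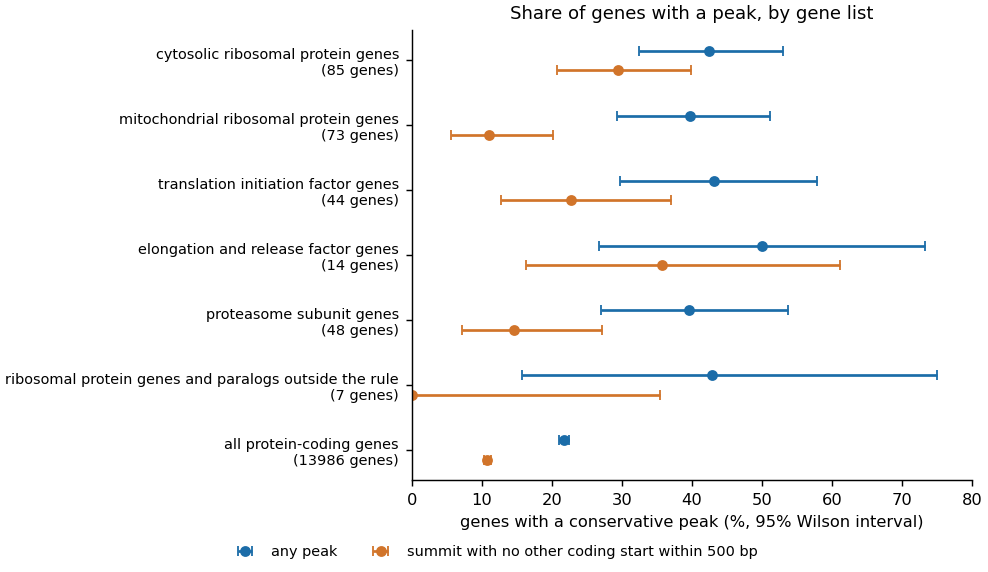
Share of genes with a conservative peak (horizontal axis, %, with 95% Wilson intervals) by gene list, for any peak (blue) and for summits with no other coding start within 500 bp (orange). For any peak the ribosomal protein genes, at 42.4%, lie amid the other gene lists and above all protein-coding genes at 21.7%.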

How the data were processed

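ChIP-seq peak lists of 2 replicates were used as the authors deposited them on dm6, per the file headers and accompanying text files. For alignment, caller and any control in the calls, tools and versions: not given in the sources used here. Each peak carries the authors' signal, on a scale not stated, and the deposited ranked lists carry the −log10 of the global IDR. The annotation was Ensembl release 115 and the genome RefSeq dm6. Coordinates of all 85 members were the same in both annotations. Genes were matched to summits within 500 bp, and words were counted in 101 bp summit windows and 100 bp promoters with Python 3.11.15, pandas 2.3.3 and Biopython 1.88. The matching was tested on simulated data. Intervals are 95% Wilson. Depth is unknown. The members, gene lists and words were chosen with earlier results of these data known, so no test was run. Genes are named as the 10 strongest, the 5 weakest, the 5 with the best score short of the list, paralogs, genes with more than 1 peak, with a peak in neither replicate list or with no row. Promoters were printed for the 6 strongest genes outside arm 2R with at most 30 UTR bases in the window (which passed over RpL7), and for the 3 weakest in the ranked list outside that arm. Results on some single members are not reported here, although all 85 enter the counts. Identity of paralogs is of coding sequence, protein sequence not being used here.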

Additional observations from a re-analysis of the deposited data

How the results depend on the processing

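The count of members with a peak lay between 25 and 43 over 12 alternatives (33 and 34 with 1 replicate left out), within 1.5 times the 36 reported. The share of all protein-coding genes moved with it: 19.1% within 250 bp, 24.2% within 1000 bp, 15.9% within 100 bp, 23.0% in the pooled list, 12.9% with the strongest 50% of peaks, 17.1% where the peak had to overlap the start, 16.8% by nearest start, 19.8% by canonical start and 10.8% with no neighbouring start, and 14.0 to 18.4% with 1 replicate left out. The members' share was 1.85 to 2.77 times that of all genes. Their median percentile of signal in the list was 72.9, and 58.6 to 68.1 with 1 replicate left out. The median summit was at -37.5 bp from canonical starts. E-boxes reached 58.3% with 100 bp each side. TCT starts were 15.3% within 2 bp, 78.8% within 10 bp and 36.5% at canonical starts. The share of members with ATCGAT that had a peak was 52.0% with no neighbouring start, and 68.0 to 76.0% with 1 replicate left out. Alternatives for ATCGAT promoters and for peaks at TCT starts were chosen after seeing the data. The causes were not tested. No paired analysis was possible because there is 1 group. With 2 replicates and no reads, neither the spread between embryos nor a limit of detection can be given.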
